A study of Homo sapiens with 6 samples.

Results

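The E2F and RB family genes were taken as the probes annotated to 9 symbols: the activator genes E2F1, E2F2 and E2F3, the atypical repressor genes E2F7 and E2F8, the dimerization partner TFDP1, and the pocket protein genes RB1, RBL1 and RBL2. The array held 11 probes for them among 47323 probes. Of the 11, 10 passed the filter on dim probes and at least 1 per gene remained, so that all 9 genes were among the 14627 features tested. The members were chosen by name and role, with earlier results of these arrays known.

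The 3-AP group held 1 culture each of the human primary effusion lymphoma lines BCP1, BCBL1 and BC1, exposed for 48 h to 2.5 µM, and the vehicle group held 1 culture each of the same lines over the same time. All were grown in RPMI medium with FBS, and total RNA was hybridised to Illumina expression bead arrays, 6 arrays in all. The drug 3-AP, also called triapine, blocks ribonucleotide reductase, which supplies the deoxyribonucleotides used to copy DNA. Because a line had 1 array per condition, the response within a line has no test. The p-values of 3-AP against vehicle rest on 3 pairs, or on 2 where a line is left out. In limma their error mixes a gene's own spread over these pairs with the spread pooled over all features.

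E2F proteins bind DNA as dimers with a DP protein and switch on genes for entry into S phase. The pocket proteins RB1, RBL1 (p107) and RBL2 (p130) bind E2F and hold these genes off until cyclin-dependent kinases phosphorylate them. E2F7 and E2F8 bind the same motif without a DP partner and repress. Primary effusion lymphoma is a B-lineage lymphoma that carries Kaposi sarcoma-associated herpesvirus, whose own D-type cyclin pairs with CDK6 to phosphorylate RB1. BC1 is also known to carry Epstein-Barr virus, which BCP1 and BCBL1 lack.

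On the BCBL1 and BC1 arrays 37% to 39.2% of probes were detected. The 6 plasma cell markers looked up (SDC1, IRF4, PRDM1, CD38, XBP1 and TNFRSF17) were each detected on all 6 arrays, PAX5 on none and MS4A1 on 1, CD3E, CD3D and ITGAM on none, CD14 on 2 and CSF1R on 1. CD79A, CD79B and the T cell marker CD2 were detected on 4 arrays. The arrays labelled BCP1 and BCBL1 stood close together. Across probes, detected or not, log2 values of the 3-AP arrays of these 2 lines correlated at 0.993 and those of the vehicle arrays at 0.995. Within a line, 3-AP against vehicle gave 0.99 (BCP1), 0.989 (BCBL1) and 0.982 (BC1), and BC1 against the other lines gave 0.95 to 0.962. Both BCP1 columns of the authors' non-normalized table held, in 100% of probes, the numbers that the processed table gives for BCBL1, so those 2 columns entered no test. Calls of 3-AP against vehicle and of differences between lines are therefore also given without BCP1 and without BCBL1.

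Several of these genes are themselves textbook targets of E2F, so their start sites were searched for the letters of the E2F motif. The windows below run from 250 bases before to 50 after the annotated start (RefSeq, GRCh38.p14, read 5′ to 3′ on the gene's strand). They are shown for E2F2 and RBL1, the 2 members that passed the test of 3-AP, and for E2F1, which did not. Capitals mark TTTNGCG on either strand. In E2F2 the run of capitals TTTGGCGCTAAA holds a forward match that overlaps a reverse one, TTTAGCG on the other strand. The windows lie at chr1:23531184-23531483 for E2F2, chr20:37095948-37096247 for RBL1 and chr20:33686336-33686635 for E2F1, all on the minus strand.
E2F2: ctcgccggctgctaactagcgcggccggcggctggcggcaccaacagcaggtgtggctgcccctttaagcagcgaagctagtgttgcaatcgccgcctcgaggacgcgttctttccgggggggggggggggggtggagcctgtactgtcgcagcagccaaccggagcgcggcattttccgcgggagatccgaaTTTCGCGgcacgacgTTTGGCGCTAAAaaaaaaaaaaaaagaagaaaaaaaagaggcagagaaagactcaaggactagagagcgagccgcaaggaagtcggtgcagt
RBL1: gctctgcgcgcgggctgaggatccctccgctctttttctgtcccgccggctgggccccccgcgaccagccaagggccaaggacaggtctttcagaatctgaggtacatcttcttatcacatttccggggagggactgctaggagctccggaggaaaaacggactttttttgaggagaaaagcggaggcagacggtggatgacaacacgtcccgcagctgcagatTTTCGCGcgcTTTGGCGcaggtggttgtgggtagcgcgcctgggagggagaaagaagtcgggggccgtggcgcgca
E2F1: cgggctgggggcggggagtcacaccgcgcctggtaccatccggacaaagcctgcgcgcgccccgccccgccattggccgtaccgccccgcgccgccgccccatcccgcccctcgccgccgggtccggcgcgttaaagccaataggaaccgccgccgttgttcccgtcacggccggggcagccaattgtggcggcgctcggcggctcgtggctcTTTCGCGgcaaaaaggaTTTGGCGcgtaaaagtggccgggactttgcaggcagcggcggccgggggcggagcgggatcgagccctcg
Matches began at -57, -42 and -37 from the start of E2F2, at -26 and -16 for RBL1 and at -37 and -20 for E2F1. A window was found for 8 of the 9 members, with E2F8 the member without one. TTTNGCG was present in the windows of 6 members, also E2F3, E2F7 and TFDP1 with 1 match each, and in neither that of RB1 nor those of RBL2. At least 2 matches were found in 3 members. Over all 35116 promoter windows of that length, 5.14% held TTTNGCG and 0.305% held it at least 2 times. The longer forms TTTCGCGC, TTTGGCGC, TTTCCCGC and TTTGCCGC were in 3.31% of windows, and in those of E2F1, E2F2, E2F3, RBL1 and TFDP1. Of these forms, TTTCCCGC and TTTGCCGC do not hold TTTNGCG, so their matches are not a subset of the capitals. The motif was chosen with these windows in view, and a match describes letters, not binding.

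After 48 h of 3-AP, E2F2 signal rose by 1.32-fold and RBL1 signal fell by 1.35-fold on average, each in the same direction in all 3 lines, while the other 7 members did not pass the test. In all 2 of 9 members passed (1 higher, 1 lower; limma with cell line as a block, adjusted p under 0.05), beside 7.86% of all features, 4.1% higher and 3.77% lower. The median log2 fold change of the members was 0.03 and that of all features -0.00. Neither call held once background was subtracted before the test, a step after which 0.342% of all features and 0 of 9 members passed in limma, with 2 of 9 members at an unadjusted p under 0.05, beside 24% of all features. In limma 0 members passed without BCP1, beside 0.636% of all features, and 0 without BCBL1, beside 3.57%. Without BC1 3 of 9 passed (E2F2, RBL1 and RBL2), beside 26.5% of all features. The error of that fit is pooled over features from lines whose arrays closely resemble each other. Its p-values therefore follow the size of a change and do not measure a gene's own spread. In cultures measured whole, less RNA per cell and fewer cells in a phase of the cell cycle cannot be told apart. Signals are the deposited linear intensities, in arbitrary units, and are compared only within a probe.

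**Figure D1:**
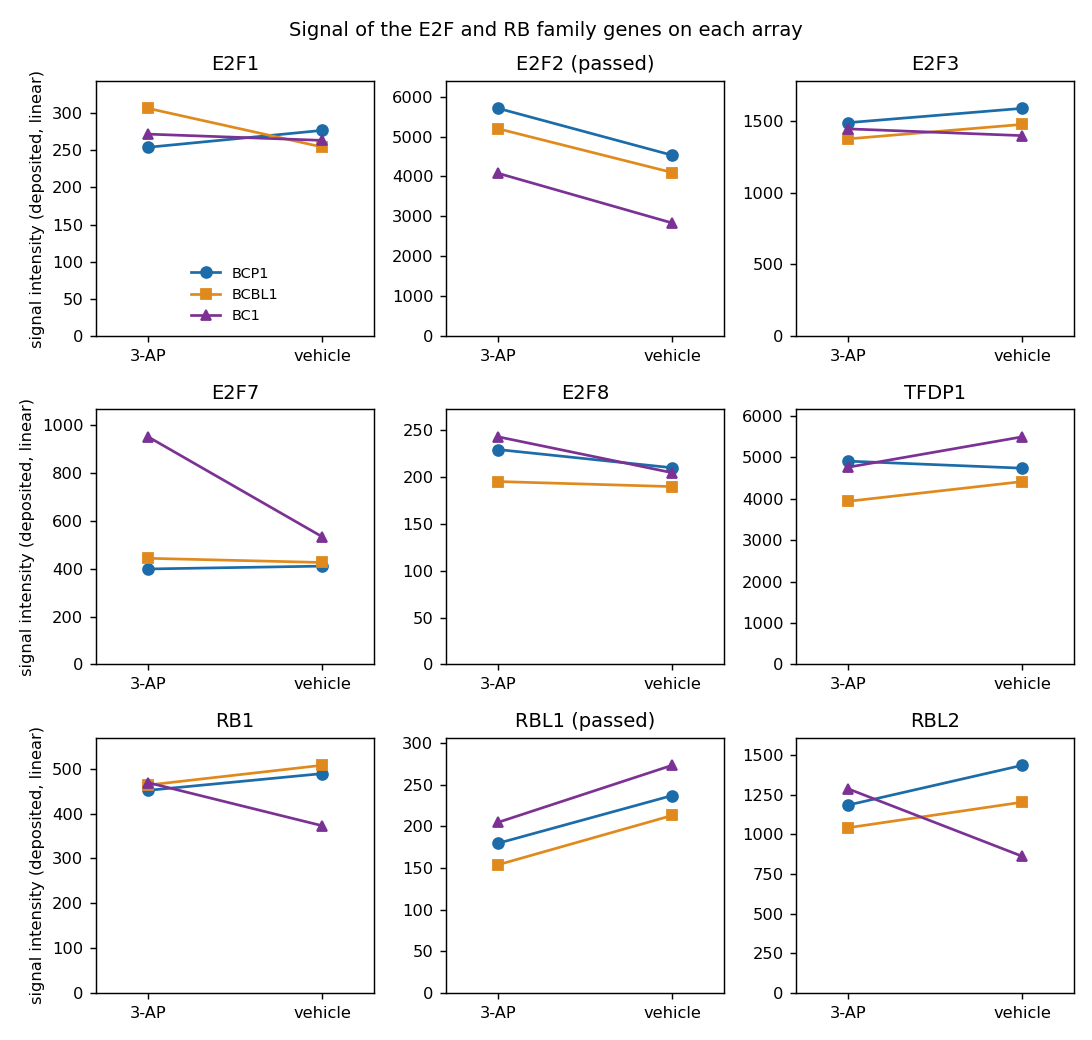
Signal intensity (deposited values, linear axis from 0) of each family member on each of the 6 arrays, with 3-AP at left and vehicle at right of each panel. Lines join the 2 arrays of a cell line. E2F2 is higher and RBL1 lower with 3-AP in every line, and in RB1 and RBL2 the BC1 line slopes the other way from BCP1 and BCBL1.

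Among the activators, E2F2 was the member that changed. E2F2, which drives S-phase genes when released from RB1, had 5706.3, 5194.7 and 4077.9 with 3-AP in BCP1, BCBL1 and BC1, against 4531.3, 4098 and 2832.7 with vehicle (probe ILMN_1777233). It was higher with 3-AP in 3 of 3 lines, although the vehicle arrays of BCP1 and BCBL1 lay above the 3-AP array of BC1, so the groups overlap. Log2 fold changes were 0.33, 0.34 and 0.53, with a mean of 0.40 ± 0.09 (SE, n = 3 pairs), or 1.32-fold (limma adjusted p = 0.0383, 95% interval 0.19 to 0.61). The size was the same after background subtraction (0.40, limma adjusted p = 0.150). The call was lost without BCP1 (0.43, adjusted p = 0.146) and without BCBL1 (0.43, adjusted p = 0.127), and held without BC1 (0.34, adjusted p = 0.00198), all in limma.

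E2F1, the best known activator, gave no common direction. It had 254, 306.4 and 271.7 with 3-AP in BCP1, BCBL1 and BC1, against 276.7, 254.4 and 263.3 with vehicle. The log2 fold changes of -0.12, 0.27 and 0.05 averaged 0.06 ± 0.10 (SE; limma adjusted p = 0.734), and the 95% interval of -0.17 to 0.30 bounds the mean change. E2F3, the activator whose gene is transcribed from alternative starts, had 1490.4, 1377.2 and 1446.9 with 3-AP, against 1590.3, 1478 and 1399.7 with vehicle. Its mean of -0.05 ± 0.09 (SE) had a 95% interval of -0.25 to 0.15. For both genes the groups overlap, and E2F1 had a mean of -0.04 without BCBL1.

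Of the atypical repressors, E2F7 was high on 1 array. It had 398.7, 443.3 and 950.6 with 3-AP in BCP1, BCBL1 and BC1, against 410.6, 425.8 and 533.6 with vehicle. The other 5 arrays lay within 398.7 and 533.6, and the 3-AP array of BC1 stood above them. By line the log2 fold changes were -0.04, 0.06 and 0.83, a mean of 0.28 ± 0.16 (SE; limma adjusted p = 0.318) that became 0.01 without BC1. E2F8, its close relative, was dimmer, at 229.2, 195.1 and 242.8 with 3-AP, against 209.8, 189.7 and 204.5 with vehicle. It was higher in 3 of 3 lines (0.13, 0.04 and 0.25) but did not pass (mean 0.14 ± 0.09 SE, limma adjusted p = 0.356, 95% interval -0.07 to 0.34). The E2F8 signals lay close to the lowest detected signals of 150.5 to 166.2 per array, and after background subtraction its mean was 0.30.

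TFDP1 encodes DP1, the partner that E2F1 to E2F6 need to bind DNA. Its brighter probe had 4903.2, 3935.6 and 4757.8 with 3-AP in BCP1, BCBL1 and BC1, against 4733.8, 4410.5 and 5490.2 with vehicle. The log2 fold changes were 0.05, -0.16 and -0.21 (mean -0.11 ± 0.09 SE, limma adjusted p = 0.504). Another kept probe gave -0.05, -0.10 and -0.16, also with a mean of -0.10, so both probes put the change within the same small range.

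RBL1 was the pocket protein gene that fell. RBL1 encodes p107, which binds mainly the repressor E2Fs and whose gene is itself an E2F target. It had 179.6, 153.8 and 204.7 with 3-AP in BCP1, BCBL1 and BC1, against 236.8, 212.9 and 273.1 with vehicle (probe ILMN_1782745). Every 3-AP array lay below every vehicle array, as it did for no other member, beside 17.6% of all features whose groups did not overlap in either direction. Log2 fold changes were -0.40, -0.47 and -0.42, a mean of -0.43 ± 0.08 (SE, n = 3 pairs), or 1.35-fold lower (limma adjusted p = 0.0269, 95% interval -0.62 to -0.24).

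The RBL1 signal was near the floor of the arrays, and its size depends on what is taken as background. The probe was detected on 5 of 6 arrays and not on the 3-AP array of BCBL1. After background subtraction the fall was larger and did not pass (-1.08 ± 0.17 SE, limma adjusted p = 0.0731), with -0.97, -1.47 and -0.80 by line. The call was lost in limma without BCP1 (-0.44, adjusted p = 0.135) or BCBL1 (-0.41, adjusted p = 0.141) and held without BC1 (-0.43, adjusted p = 3.949e-05). A different RBL1 probe was detected on 0 arrays and was not tested. It read 124, 138 and 122.1 with 3-AP in BCP1, BCBL1 and BC1, against 138.1, 139.8 and 138.2 with vehicle, below the lowest detected signal of every array, and its log2 ratios averaged -0.12.

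RB1 and RBL2 gave opposite signs in BC1 and in the other lines. RB1, the retinoblastoma gene itself, had 452, 463.8 and 469.2 with 3-AP in BCP1, BCBL1 and BC1, against 489.3, 507.9 and 373.1 with vehicle. The 3-AP arrays were nearly level, and the vehicle array of BC1 was the lowest of the 6. Its mean of 0.03 ± 0.11 (SE; limma adjusted p = 0.903) combined -0.11, -0.13 and 0.33, and was -0.12 without BC1. RBL2 encodes p130, the pocket protein most abundant in resting cells. It had 1184.8, 1041.7 and 1286.4 with 3-AP, against 1435.3, 1202.7 and 861.4 with vehicle. By line the RBL2 log2 fold changes were -0.28, -0.21 and 0.58, for a mean of 0.03 ± 0.16 (SE; limma adjusted p = 0.926). Without BC1 it was called lower at -0.24 (limma adjusted p = 0.0352), a fit that rests on 2 lines whose arrays closely resemble each other.

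**Figure D2:**
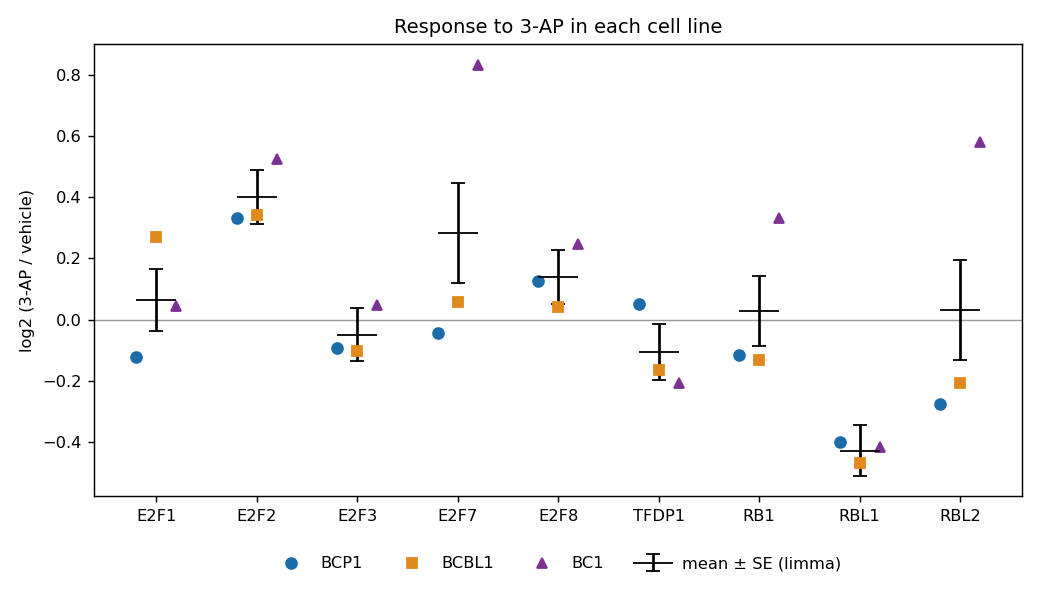
Log2 ratio of 3-AP over vehicle for each member in BCP1, BCBL1 and BC1 (points), with the mean and its SE from limma (black bars, n = 3 pairs). The 3 lines lie close together for E2F2 (0.33 to 0.53) and RBL1 (-0.47 to -0.40), and also for E2F3 and E2F8. BC1 lies farthest above the other lines for E2F7, RB1 and RBL2, and is also the highest line for E2F2, E2F3 and E2F8.

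Members whose 3 lines moved in the same direction were E2F2, E2F8 and RBL1, that is 3 of 9, beside 49.4% of all features. In E2F3, RB1 and RBL2, again 3 of 9, BC1 moved opposite to both other lines, beside 21.7% of all features. The median over members was 0.25 in BC1, against -0.09 in BCP1 and -0.10 in BCBL1, where the medians of all features were 0.00, -0.00 and -0.01. The difference between the response of BC1 and the mean of the other lines was fitted in limma with 1 residual degree of freedom. The error there comes from how BCP1 and BCBL1 differ, pooled over features, and holds no repeat of BC1, so the differences are given as values. They were 0.83 for E2F7, 0.82 for RBL2 and 0.45 for RB1, the 3 of 9 members past the threshold of that fit, beside 15.4% of all features. After background subtraction the differences were 0.99, 0.93 and 0.60 and did not pass. The share of all features passing there is not given, so that loss is not read as a result about the members. Without BCP1 or BCBL1 the fit leaves no degree of freedom for an error.

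Levels between lines were compared after quantile normalization over the 6 arrays, because the deposited values of a line share 1 distribution and lines do not. With 3-AP and vehicle as a term, 3 of 9 members differed between lines (limma F test, adjusted p under 0.05), beside 28.5% of all features. The level of a line averages its 3-AP and its vehicle array, each from 1 culture, so no condition was repeated within a line. E2F2 was 1.43-fold lower in BC1 than in the mean of BCP1 and BCBL1 (-0.52 ± 0.09 SE, F test adjusted p = 0.0117 in limma), and still differed without BCP1 (-0.50) and without BCBL1 (-0.54). E2F7 was 1.69-fold higher in BC1 (0.76 ± 0.17 SE, limma F test adjusted p = 0.0327), where its deposited signal was 950.6 with 3-AP and 533.6 with vehicle. In BCP1 and BCBL1 it had 398.7 and 443.3 with 3-AP and 410.6 and 425.8 with vehicle, so the gap was smaller with vehicle. The E2F7 level still differed without BCP1 (0.69) and without BCBL1 (0.83). It did not pass with no filter on dim probes (0.76, limma F test adjusted p = 0.0628). From the non-normalized signals of BCBL1 and BC1 neither E2F7 (0.89, adjusted p = 0.0824) nor E2F2 (-0.51, adjusted p = 0.129) passed in limma. RBL1 was 1.29-fold higher in BC1 (0.37 ± 0.09 SE, limma F test adjusted p = 0.0251), a call lost without the quantile step (0.29, adjusted p = 0.0566 in limma) and without BCBL1 (0.26, adjusted p = 0.210) and kept without BCP1 (0.48).

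For the other 6 members the difference between BC1 and the other lines lay between -0.20 (RBL2) and 0.20 (E2F8), and none passed. The RBL2 value averages opposite orders. With vehicle its deposited signal was 861.4 in BC1, against 1435.3 and 1202.7 in BCP1 and BCBL1. With 3-AP it was 1286.4, against 1184.8 and 1041.7. BCBL1 differed from BCP1 in 0 of 9 members (limma adjusted p of 0.928 or above), beside 0.116% of all features. At an unadjusted p under 0.05 the count was also 0 of 9, beside 5.37% of all features. After background subtraction 1 of 9 members differed between lines in limma, beside 2962 of 14627 features. That member was RBL1 (0.91, limma F test adjusted p = 0.0321). E2F2 (-0.53, adjusted p = 0.0824) and E2F7 (0.97, adjusted p = 0.0943) kept their direction and did not pass.

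**Figure D3:**
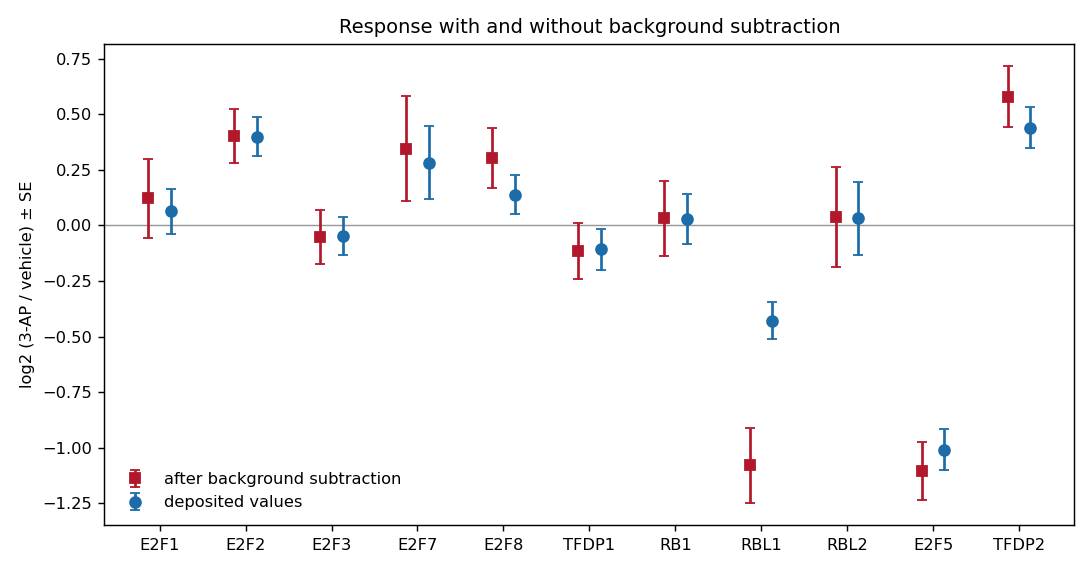
Mean log2 ratio of 3-AP over vehicle with its SE (n = 3 pairs), after background subtraction (squares, left) and from the deposited values (circles, right), for the 9 members and for E2F5 and TFDP2. The 2 processings lie close for most genes, and RBL1 is at -1.08 after subtraction and at -0.43 in the deposited values.

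Of the remaining E2F and DP genes, E2F5 fell and TFDP2 rose. In the deposited values E2F5 fell by more than any member, while after background subtraction it was level with RBL1 (-1.10 ± 0.13 and -1.08 ± 0.17 SE). Of 5, 4 were tested (TFDP3 was not) and the median was 0.20. Among the 4, 1 was higher and 1 lower, beside 4.1% and 3.77% of all features. E2F5, a repressor that works with RBL2, had 980.7, 775.8 and 2172.1 with 3-AP in BCP1, BCBL1 and BC1, against 1772.6, 1693.7 and 4486.3 with vehicle. It fell in every line (-0.85, -1.13 and -1.05), by a mean of -1.01 ± 0.09 (SE), which is 2.01-fold lower (limma adjusted p = 0.00295, and 0.0556 after background subtraction). TFDP2, the other DP gene of the family, had 643.4, 598.4 and 588.3 with 3-AP, against 435.8, 426.8 and 487.4 with vehicle, and rose by 0.44 ± 0.09 (SE; limma adjusted p = 0.0346). A dimmer TFDP2 probe gave 0.25. The call of TFDP2 was lost without BCP1 (0.38) or BCBL1 (0.42), while that of E2F5 held without each line. With cell line as a random block E2F5 did not pass (limma adjusted p = 0.059), and it was called under 9 of 13 alternatives.

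Among genes that act on the pocket proteins, 3 cyclin or kinase genes and 1 inhibitor gene rose. Of 8 G1 cyclins and kinases 7 were tested, with a median of 0.17. Among the 7, 3 passed as higher and none as lower, beside 4.1% and 3.77% of all features. CCNE1, a cyclin that activates CDK2 against RB1 late in G1, had 440.3, 442.4 and 732.1 with 3-AP in BCP1, BCBL1 and BC1, against 240.7, 273.6 and 461.9 with vehicle (0.74 ± 0.09 SE, limma adjusted p = 0.0083). Its partner kinase CDK2 rose by 0.46 (limma adjusted p = 0.0222), although another CDK2 probe gave 0.06. The second cyclin E gene, CCNE2, rose by 0.45 (limma adjusted p = 0.032) from vehicle signals near the floor. It had 193.8, 211 and 262.9 with 3-AP in BCP1, BCBL1 and BC1, against 143.9, 137.9 and 211.3 with vehicle, where the lowest detected signals of BCP1 and BCBL1 were 158.2 and 164. Its value was 1.22 after background subtraction and did not pass (limma adjusted p = 0.0906), nor did it when cell line was a random effect (limma adjusted p = 0.0651). These cyclin E genes are E2F targets as well as regulators. Among 7 inhibitors of cyclin-dependent kinases, 5 were tested, 1 passed as higher (4.1% of all features) and the median was 0.22. CDKN1A, which encodes p21, had 6721.2, 8673.7 and 24609.7 with 3-AP, against 1225.7, 2786 and 3343.9 with vehicle, a rise of 2.32 ± 0.21 (SE) or 5.01-fold (limma adjusted p = 0.0028).

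The list of the MuvB core, B-Myb and FoxM1 and that of pocket protein corepressors gave no call. RBL2 joins the MuvB core in the repressive DREAM complex. Of the genes for the MuvB core, B-Myb and FoxM1, 0 of 7 passed in limma, beside 7.86% of all features, and the median was -0.01. At an unadjusted p under 0.05 the count was 2, beside 27.1% of all features and 2 of the 9 members. LIN9 had -0.30 (limma adjusted p = 0.0948), RBBP4 0.32 (adjusted p = 0.146) and LIN37 0.15, and other RBBP4 probes gave -0.02 and -0.50. Among 4 tested corepressors of pocket proteins 0 passed in limma, with 3 at an unadjusted p under 0.05 and a median of -0.19. The histone methyltransferase gene SUV39H1 had -0.25, the deacetylase gene HDAC2 -0.26 and the scaffold gene SIN3B 0.21.

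Of the E2F target genes of S phase, 4 passed as higher and none as lower, beside 4.1% and 3.77% of all features. The list held 32 genes, of which 30 were tested, 14 had positive and 16 negative fold changes, and the median was -0.01, beside -0.00 for all features. At an unadjusted p under 0.05 in limma the count was 16 of 30, beside 27.1% of all features. Of these, HELLS, BRCA1, CDC6, PCNA and CDC45 were higher without passing, and MCM7, GINS2, MCM6, CCNA2, CHEK1, MCM2 and MCM5 lower. Each had the same sign in all 3 lines. RRM2, the small subunit of the enzyme that 3-AP inhibits, had 1301.8, 1751.1 and 1944.6 with 3-AP in BCP1, BCBL1 and BC1, against 788, 923.6 and 1088.8 with vehicle, and rose 1.78-fold (0.83 ± 0.09 SE, limma adjusted p = 0.0055). The replication licensing factor CDT1 rose by 0.59 (limma adjusted p = 0.014). Thymidine kinase, TK1, rose by 0.56 (limma adjusted p = 0.023), and the large reductase subunit RRM1 by 0.42 (limma adjusted p = 0.0307). After background subtraction 0 genes of any of these lists passed in limma, while 10 of 30 S-phase targets had an unadjusted p under 0.05, beside 24% of all features. Without BCP1 the calls of CCNE1, CCNE2, CDK2, CDT1, TK1 and RRM1 were lost, and without BCBL1 those of CCNE2, CDK2 and RRM1; RRM2 and CDKN1A kept theirs without each line.

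**Figure D4:**
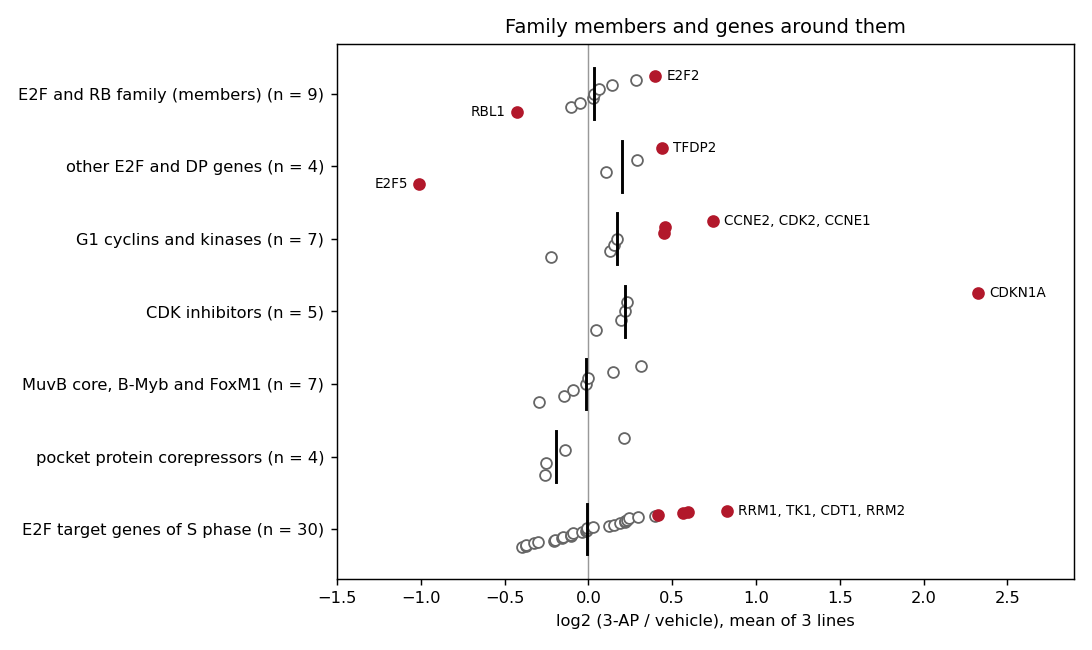
Mean log2 ratio of 3-AP over vehicle (n = 3 pairs) for the family and for 6 lists of genes around it. Filled points passed the limma test in the deposited values and are named from left to right, open points did not, and the vertical bar is the median of the list; E2F5 at -1.01 and CDKN1A at 2.32 lie farthest out.

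The genes whose 3 within-line log2 fold changes lay nearest to those of each called member were found among 10455 other named features, by Euclidean distance. For E2F2 (0.33, 0.34 and 0.53 in BCP1, BCBL1 and BC1) they were APOBEC3B, EPHA3, ZFP36L1, BLCAP and TRIR, at distances of 0.0216 to 0.0398. APOBEC3B, a cytidine deaminase gene, had 0.33, 0.32 and 0.54. For RBL1 (-0.40, -0.47 and -0.42) they were POLR3E, NAA25, DCAF7, TBL2 and CCZ1, at 0.0490 to 0.0666. POLR3E, a subunit gene of RNA polymerase III, had -0.40, -0.42 and -0.42. Each distance rests on 3 values per gene, and for RBL1 on an array where its probe was not detected. After background subtraction RBL1 had -1.08, against -0.56 to -0.43 for its 5 nearest genes, and E2F2 had 0.40, against 0.40 to 0.84, so the match depends on the processing.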

How the data were processed

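Per the labels, total RNA of 6 cultures was labelled as cRNA for Illumina bead arrays, 3 with 3-AP and 3 with vehicle, 1 pair per cell line. The authors deposited 2 tables. The processed table holds linear signal intensity per probe. The non-normalized table pairs an intensity with the authors' detection p-value for each probe on each array, as its headers say. For scanner software, background step and normalization, details were not given in the sources used here. Sorted intensities matched closely between both arrays of a line, so the deposited values look normalized within each line. The number of arrays limits the precision.

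The analysis started from log2 of the processed table, whose rows are probes. Gene symbols came from a separate probe annotation. Left out were 13 probes with a signal of 0. A probe was kept when detected on at least 3 of 6 arrays at p under 0.05. For BCP1, whose own detection p-values were not usable, detection meant lying in the top 38.12% of signals, as many as the remaining 4 arrays detected on average. In all 17988 probes were kept. The annotation gave 1 symbol for 30113 probes, several for 8 and none for 17202, and the brightest kept probe stood for its gene, which left 14627 features (10456 named). Tests used R 4.3.3 and limma 3.58.1 (lmFit, eBayes, Benjamini-Hochberg over all features at 0.05, two-sided) with cell line as a block. There were 2 residual and 5.47 prior degrees of freedom. The pairing comes from the cell line label. Deviations from the group means of the 3-AP and vehicle arrays of a line correlated at 0.78 (BCP1), 0.82 (BCBL1) and 0.87 (BC1). Crossed between BCP1 and BCBL1 they gave 0.61 and 0.62, and with BC1 -0.77 to -0.8.

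Alternatives were background subtraction with quantile normalization (limma nec, offset 16, with detection p-values borrowed by rank for BCP1), other normalizations, filters, probe rules and blocks, and leaving out each line. The background-subtracted processing is the one an earlier analysis of these data led with. Members, lists and tests were chosen with earlier results of these data known. Named were every member, the passing genes of each list (otherwise the 3 with the smallest raw p) and the 5 nearest genes of the called member with the largest rise and of the one with the largest fall. Promoter windows were searched in Python 3.11.15.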

Additional observations from a re-analysis of the deposited data

Results flagged for a closer look

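The members E2F7, RBL2 and RB1 stood out in the limma fit of the response of BC1 against that of the other lines, whose error holds only the spread between BCP1 and BCBL1 and no repeat of BC1. The differences are values, not a test of BC1. E2F7 had a response in BC1 that exceeded the mean of BCP1 and BCBL1 by 0.825 on the log2 scale (0.83 in BC1, against 0.01). For RBL2 the difference was 0.821 (0.58 in BC1, against -0.24), and for RB1 it was 0.453 (0.33 in BC1, against -0.12). All 3 had the same sign after background subtraction (0.99, 0.93 and 0.60) and none passed there. After quantile normalization over the arrays RB1 had 0.43 and did not pass. BC1 had 1 array per condition, so line and culture cannot be told apart.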

How the results depend on the processing

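The 3-AP test called 1150 features (599 higher, 551 lower) and 2 members. It called 50 features (36 higher, 14 lower) and 0 members after background subtraction. With no replicate block, a fit that leaves out the pairing by line, it called 12 (11 and 1) and 0. From the non-normalized signals of BCBL1 and BC1 it called 23 (21 and 2) and 0. Without 1 line it called 93 to 3879 features (93 without BCP1, 522 without BCBL1, 3879 without BC1) and 0 to 3 members. With cell line as a random block 799 of 14627 features and 1 member (RBL1) passed. Under a stricter detection filter 1012 of 10273 features and 1 of 8 members passed (E2F2, with RBL1 filtered out). E2F2 was called under 7 of 13 alternatives, at 0.34 to 0.43 in all, and RBL1 under 7 of 12, at -1.08 to -0.40. The line difference called 4167 features and 3 members, and 610 to 3903 and 0 to 3 without 1 line. It called 2962 features and 1 member after background subtraction, and 2790 and 1 from the non-normalized signals. In the response difference between lines E2F7, RBL2 and RB1 passed, none of them after background subtraction. RB1 also did not pass after quantile normalization over the arrays (0.43). Turned in sign were RBBP4 with the mean of its probes (-0.067) and, on leaving out a line, E2F1 (-0.039 to 0.16), RB1 (-0.12 to 0.11) and RBL2 (-0.24 to 0.19). The causes of these shifts were not tested. Signal over background limits RBL1 and E2F8, both near the lowest detected signals.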
